A study of Rattus norvegicus with 12 samples.

Results

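The cytosolic ribosomal protein genes encode the protein subunits of the ribosome that translates nuclear messages in the cytoplasm. They were taken as all probe sets whose only gene symbol is Rpl or Rps followed by a digit or the letter a, with the stalk protein genes of the Rplp type included and the Rps6k kinases and pseudogenes left out. The rule gave 44 genes of the 10412 genes that a probe set names alone, 30 of the large (60S) and 14 of the small (40S) subunit, on 50 probe sets. For each gene the probe set with the highest mean signal was used. Of the 44 genes, 40 passed the filter on low signals, 28 of the 60S and 12 of the 40S subunit.

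Neurons were captured by laser microdissection from brain cryosections of untreated Fisher 344/BN F1 rats aged 6 months, and their RNA was amplified by two-cycle labelling and hybridised to Affymetrix RAE230A arrays. The 12 arrays comprise 3 each from the pyramidal layer of hippocampal CA1, the pyramidal layer of hippocampal CA3, the granular layer of the cerebellum (CbG) and layers IV to VI of the cerebral cortex (CTX). The study asked which genes differ between neurons that are vulnerable (VUL, CA1 and CbG) and resistant (RES, CA3 and CTX) to oxidative stress. No group carried a transgene or received an agent, and the labels number the arrays of each region as biological replicates 1 to 3.

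A ribosome is built from a small subunit, which binds the message and decodes it, and a large subunit, which joins the amino acids and lets the growing chain out through an exit tunnel. Each ribosomal protein is needed in a fixed number of copies per ribosome, and cells make them together. Their messages belong to the TOP family, named for a tract of pyrimidines at the very start of the transcript, through which mTOR signalling sets how strongly they are translated. Some of the proteins also act outside the ribosome, such as Rpl5 and Rpl11, which bind the p53 regulator Mdm2 when ribosome assembly is disturbed.

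An array of CA3 (its replicate 3) and an array of CbG (also its replicate 3) went against their labels. Among 2040 probe sets outside the ribosomal protein genes that differed at least 2-fold between the other CbG and the other CA3 arrays, the array labelled CA3 replicate 3 lay nearer to CbG in 91.6%, and the array labelled CbG replicate 3 lay nearer to CA3 in 93.9%. The summed signal of the granule cell markers was 40626 on the array labelled CA3 replicate 3 and 2532 on the array labelled CbG replicate 3. The comparisons between regions are therefore given as labelled, with the labels of these arrays exchanged, and without both arrays. CbG replicate 2 also stood apart: its ratio of 3′ to 5′ Actb signal was 6.52 on the log2 scale against 3.85 to 5.35 on the other arrays. The same ratio was inside the range of the others for Gapdh (2.31 against 1.31 to 2.76) and below it for hexokinase (0.07 against 0.65 to 1.57), so that the 3 measures differed in direction. Its summed Purkinje cell marker signal was 37256 against 15789 on CbG replicate 1 and 2607 on the array labelled CA3 replicate 3. Array medians ranged from 144.5 to 199 signal units.

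The ribosomal protein genes were low on all CA1 arrays, somewhat higher on the CTX arrays, and highest on 3 arrays: CbG replicates 1 and 2 and the array labelled CA3 replicate 3. On the log2 scale relative to the array median, the median of the 40 genes was 4.29, 4.21 and 4.33 on the CA1 arrays and 4.61, 4.40 and 4.72 on the CTX arrays. It was 4.25, 4.25 and 5.43 on the arrays labelled CA3 and 4.94, 5.73 and 4.17 on those labelled CbG. The third CA3 array thus lay above all CTX arrays while the third CbG array lay below all CA1 arrays. The array labelled CA3 replicate 3 was above the mean of the other CA3 arrays for 40 of 40 genes, by a median of 1.14. Over all probe sets tested that median was -0.06. The array labelled CbG replicate 3 differed from the same mean by a median of -0.05, beside -0.10 over all probe sets tested. With the labels exchanged, the group values were 4.28 ± 0.06 in CA1, 4.23 ± 0.05 in CA3, 4.58 ± 0.17 in CTX and 5.37 ± 0.40 in CbG (SD, n = 3), against 4.65 ± 0.68 in CA3 and 4.95 ± 0.78 in CbG as labelled.

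**Figure D1:**
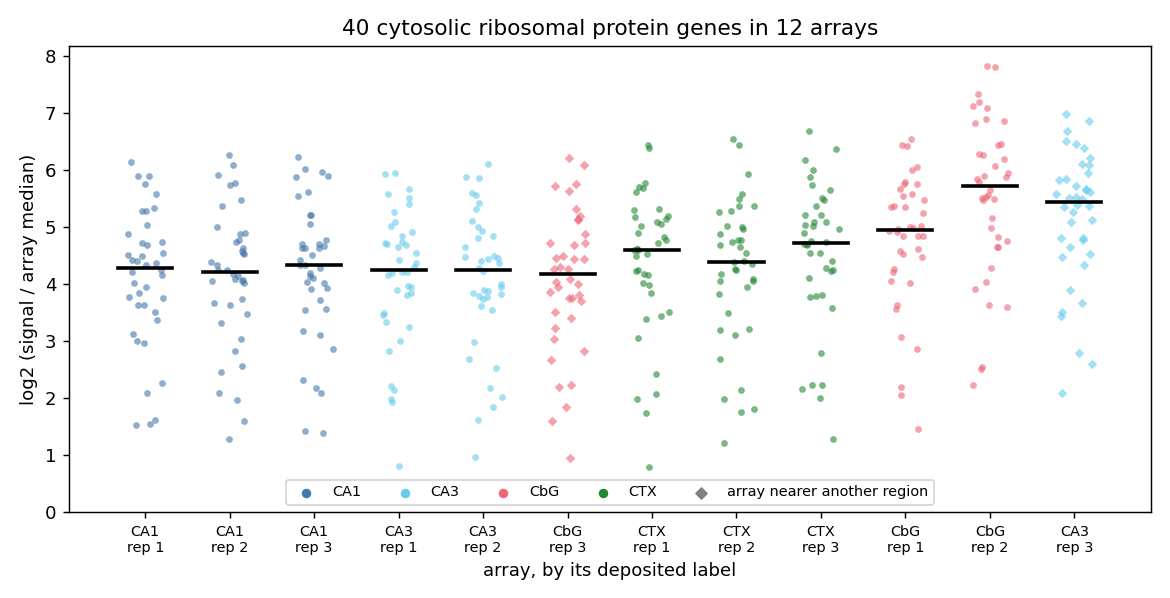
Signal of the 40 ribosomal protein genes on each of the 12 arrays, on the vertical axis as log2 of the signal over the array median; each point is a gene, the black bar is the median of the array, and diamonds mark the pair of arrays that went against their labels. The medians are 4.94 and 5.73 on CbG replicates 1 and 2 and 5.43 on the array labelled CA3 replicate 3, and lie between 4.17 and 4.72 on the other arrays.

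Within the CbG tissue the genes also varied from array to array. CbG replicate 2 was above CbG replicate 1 for 35 of 40 genes, by a median of 0.89, and by more than 1 for 17 genes, against a median of 0.14 over all 7535 probe sets tested and a share of 4.59% beyond 1. The chosen probe sets of the 40 genes made up 2.58% of the signal on CbG replicate 1 and 4.03% on CbG replicate 2, with control probe sets left out of the total. The share was 1.43% to 1.45% on the CA1 arrays and 1.85% to 2.39% on the CTX arrays. It was 1.39%, 1.23% and 2.85% on the arrays labelled CA3, and 1.38% on the array labelled CbG replicate 3. Because each array holds RNA of many cells, fewer cells of a type and less RNA per cell cannot be told apart. The share is of an array's signal, not of the RNA in a cell.

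Individual genes showed the same layout of arrays. Rpl34, a 60S protein, had signals of 1955, 2023 and 2219 in CA1 and of 3488, 3157 and 3757 in CTX. On the arrays labelled CA3 it was 2445, 1934 and 7162, and on those labelled CbG 5371, 9185 and 2190. The CbG and CA3 groups overlapped as labelled, while all 3 arrays with the granule cell signal lay above all 9 others.

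Rpl24, a 60S protein at the interface between the subunits, read 485, 624 and 623 in CA1 and 819, 739.5 and 935 in CTX. Its signals were 593, 520 and 1796 on the arrays labelled CA3 and 1569, 2016 and 488 on those labelled CbG. The same 3 arrays lay above all others, so that the CbG group was separate once the labels were exchanged. Rps6, the 40S protein that the S6 kinases phosphorylate, read 6158, 4773 and 5439 in CA1 and 6614, 4666 and 6788 in CTX. It was 5296, 4426 and 9019 on the arrays labelled CA3 and 10100.3, 12891 and 5863 on those labelled CbG, again highest on the same 3 arrays, with CA1 and CTX overlapping.

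Rpl22, an RNA-binding 60S protein that mice can lack because its paralog takes its place, went another way. Its signals were 3550, 4388 and 3657 in CA1 and 4794, 3797 and 5195 in CTX. They were 2782, 2983 and 3641 on the arrays labelled CA3 and 4316, 5243 and 3178 on those labelled CbG. No region was separate from all others as labelled, and after the exchange only CA3 was, below the rest.

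Rpl41, the smallest ribosomal protein, read 3339, 3368 and 3351 in CA1 and 5342, 5097 and 5302 in CTX. It was 3898, 3058 and 3963 on the arrays labelled CA3 and 4170, 7821 and 3478 on those labelled CbG. CTX was above CA1 on every array, while only CbG replicate 2 exceeded CTX.

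The promoters were read for the letters near the transcript starts of these genes. Sequences from RefSeq (build GRCr8) were found for 37 of the 44 genes and cover the 25 bases before and the 15 bases from the annotated transcript start, on the gene's strand. For a gene with several promoter entries only the first was used. Runs of at least 8 pyrimidines (C or T), the letters of a TOP start, are in capitals, also where they lie before the annotated start. Windows of the 5 genes with the widest and then the 5 with the narrowest range of region means after the exchange are printed here.
Rpl34, chr2:221962269-221962308, minus strand: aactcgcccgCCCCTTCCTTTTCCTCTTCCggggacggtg
Rpl26, chr10:54109667-54109706, plus strand: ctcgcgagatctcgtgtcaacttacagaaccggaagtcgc
Rpl24, chr11:58128391-58128430, minus strand: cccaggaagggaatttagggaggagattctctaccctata
Rpl35a, chr11:81235007-81235046, minus strand: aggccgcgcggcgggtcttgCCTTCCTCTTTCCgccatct
Rps3a, chr2:173827028-173827067, minus strand: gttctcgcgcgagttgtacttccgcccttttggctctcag
Rpl7l1, chr9:21695693-21695732, plus strand: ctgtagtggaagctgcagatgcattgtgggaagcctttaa
Rpl41, chr7:1563483-1563522, minus strand: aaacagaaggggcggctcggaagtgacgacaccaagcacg
Rpl6, chr12:41011676-41011715, minus strand: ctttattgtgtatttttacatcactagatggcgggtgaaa
Rpl7a, chr3:30637111-30637150, plus strand: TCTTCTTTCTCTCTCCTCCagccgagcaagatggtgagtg
Rpl22, chr5:168117936-168117975, plus strand: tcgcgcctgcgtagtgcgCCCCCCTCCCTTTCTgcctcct

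A run of at least 8 pyrimidines stood in 23 of the 37 windows, against 16.0% of the windows of 27457 rat genes. A run of at least 8 purines (A or G), the same letters on the other strand, stood in 3 of the 37, against 16.8% of all genes. The 6 letters CTTTCC on the gene's strand were in 9 of the 37 windows and in 1.84% of all windows, and the reverse complement GGAAAG was in none of the 37 and in 1.71% of all. Among the sequences printed, a run is present in 2 of the 5 genes with the widest range (Rpl34 and Rpl35a) and in 2 of the 5 with the narrowest (Rpl7a and Rpl22). With the labels exchanged, the run was present in 17 of the 26 genes with a window that were called in CbG against CTX and in 5 of the 8 that were not. A match here is a description of letters near an annotated start, and a start that is off by a few bases moves the window.

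As labelled, no ribosomal protein gene was called in any comparison between regions, where a call needed an adjusted p under 0.05 over all 7535 probe sets (limma, with the replicate number as a block) and at least a 1.5-fold difference. The count was 0 of 40 in VUL against RES, where 0% of all probe sets were called in either direction. The count was also 0 of 40 in CA1 against CA3 (1.3% of all probe sets), CbG against CTX (0.624%), CA1 against CTX (6.61%), CA3 against CTX (1.94%), CA1 against CbG (1.25%) and CA3 against CbG (0%). The test for any difference between the 4 regions called 0 of 40 (3.2% of all probe sets), and the test of whether CA1 minus CA3 differs from CbG minus CTX called 0 of 40 (2.07%). Without adjustment, limma's p was under 0.05 only for Rps6 in CbG against CTX, Rpl35 in CA1 against CTX and in CA1 against CbG, and Rps28 in CA1 against CbG, and in the other comparisons for none. Their log2 differences were 0.80 for Rps6, -0.94 and -0.88 for Rpl35 and -1.18 for Rps28, with adjusted p (limma) between 0.146 and 0.316. Such p-values in the same direction were found in 10.9%, 5.35% and 5.65% of all probe sets in CbG against CTX, CA1 against CTX and CA1 against CbG.

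The means as labelled still placed CbG highest for 36 of the 40 genes, against 18.2% of all probe sets, with group ranges that overlapped in most cases. Every CbG array was above every CTX array for 4 of 40 genes (16.2% of all probe sets), above every CA1 array for 8 (8.03%) and above every CA3 array for 0 (0.584%). The median log2 difference over the 40 genes was 0.44 in CbG against CTX, beside 0.16 over all probe sets. It was -0.65 in CA1 against CbG (0.15 over all probe sets) and -0.35 in CA3 against CbG (0.16). These 3 comparisons share the CbG arrays. By the range between region means as labelled, Rps28 (1.18), Rpl26 (1.13), Rpl34 (1.06), Rps24 (0.99) and Rpl37a (0.95) differed most and Rpl22 (0.29) and Rpl7a (0.29) least, on the log2 scale.

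With the labels exchanged, the ribosomal protein genes were higher in CbG than in CTX. Of the 40 genes 30 rose, 9 of the 12 of the 40S and 21 of the 28 of the 60S subunit, and none fell, against 20.9% of all probe sets called higher and 34% called in either direction. The median log2 difference was 0.80 beside 0.18 over all probe sets. Every CbG array was above every CTX array for 26 genes, against 29.3% of all probe sets. Without both doubted arrays 21 genes rose (14.1% of all probe sets). With the labels exchanged but without CbG replicate 2 the count was 18, again beside 20.9%, and the median 0.53 beside 0.20 over all probe sets. The count also depended on the scaling and the filter: it was 17 without centring the arrays (13.2% of all probe sets), 14 after quantile normalization (15%) and 13 with no filter on low signals (7.34%).

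The largest rises in CbG over CTX were in Rpl24 (log2 difference 1.29 ± 0.20 SE, adjusted p = 0.000236, limma) and Rps15a, a 40S protein (1.29 ± 0.34, adjusted p = 0.0103). For Rps15a the signals were 3129 and 9463 on CbG replicates 1 and 2 and 4331 on the array that carries the label CA3 replicate 3, compared with 2046, 1704 and 3712 in CTX. Replicate 2 was by far the highest, and the groups overlapped. Rpl18 rose by 1.23 ± 0.20, Rpl34 by 1.22 ± 0.22 and Rpl35a, a 60S protein mutated in some patients with Diamond-Blackfan anaemia, by 1.18 ± 0.24. Of the genes with known special roles, Rpl23, which also binds Mdm2, rose by 1.10, Rpl5 by 0.83 and Rpl11 by 0.74. Rps6 rose by 1.01, Rps3, which lies where the message enters the 40S subunit, by 0.89, Rpl3, next to the peptidyl transferase centre, by 0.88, and Rplp0, the base of the ribosomal stalk, by 0.66. The remaining 18 called genes ranged from 0.60 for Rpl12 to 1.08 for Rpl26. They were, in rising order, Rpl12, Rps16, Rpl19, Rpl13a, Rps23, Rpl14, Rpl21, Rps28, Rpl37a, Rpl39, Rpl27, Rpl4, Rps24, Rpl27a, Rps9, Rpl7, Rps3a and Rpl26.

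**Figure D2:**
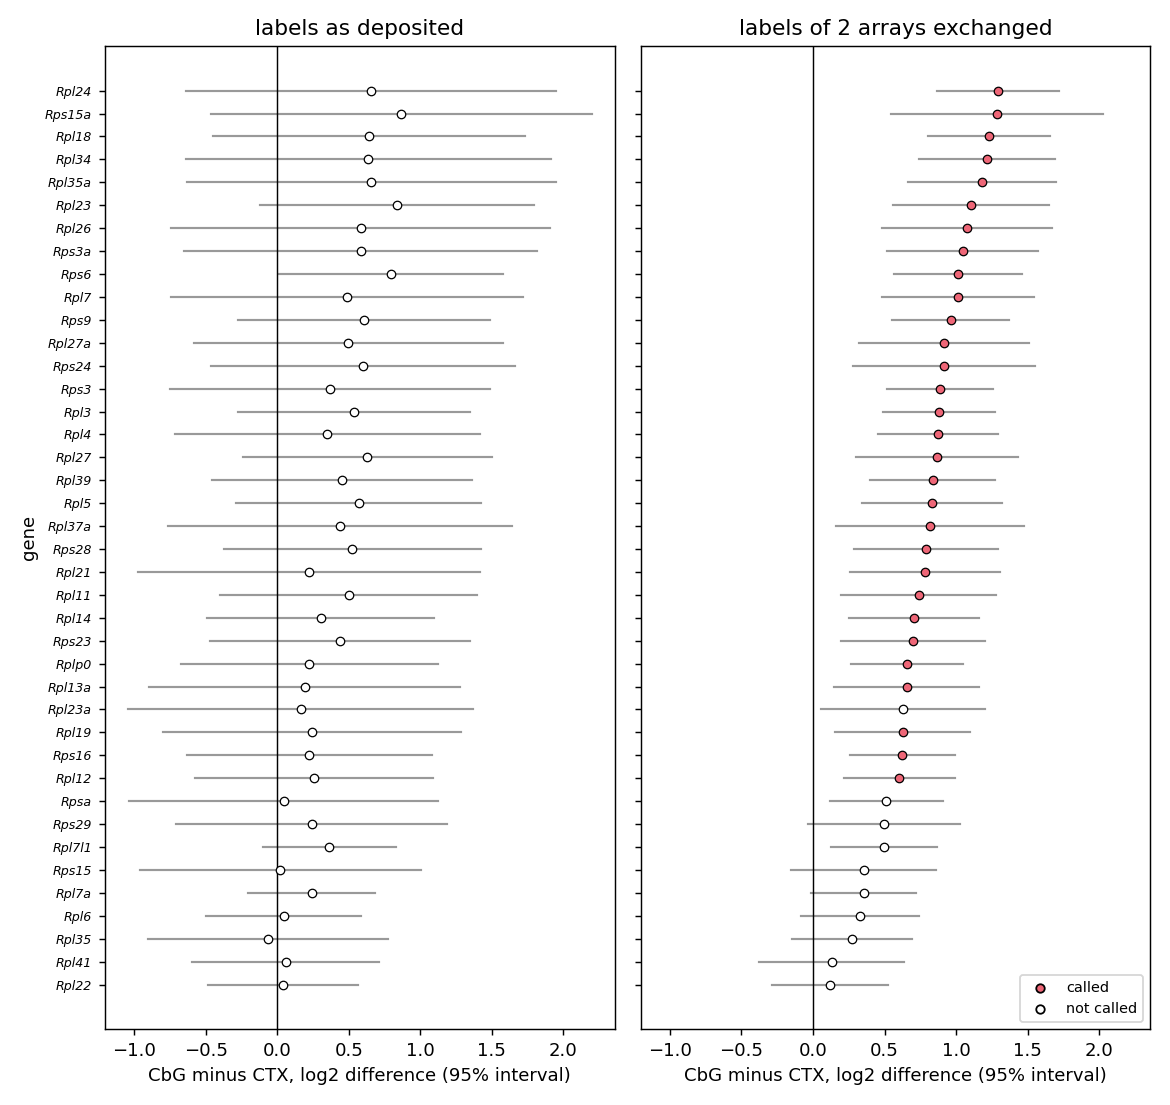
Log2 difference CbG minus CTX of each of the 40 ribosomal protein genes (horizontal axis) with its 95% interval from limma, as labelled and with the labels of the 2 doubted arrays exchanged; red marks genes called. No gene is called as labelled and 30 are called after the exchange. Over all 40 genes the differences after the exchange run from 0.12 for Rpl22, which is not called, to 1.29 for Rpl24.

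The 10 genes not called in CbG against CTX after the exchange were Rpl22, Rpl41, Rpl35, Rpl6, Rpl7a, Rps15, Rpl7l1, Rps29, Rpsa and Rpl23a. The differences of Rpl22 (0.12, 95% interval -0.29 to 0.53) and Rpl41 (0.13, -0.38 to 0.64) were the smallest, and these intervals include the 1.5-fold limit only for the latter. Rpl35 differed by 0.27 (-0.14 to 0.69), which leaves room for a change above that limit. Rpl7l1, a paralog of Rpl7 that acts in ribosome assembly, and Rpsa, also known as the precursor of the 67-kDa laminin receptor, had differences of 0.50 and 0.51 with adjusted p of 0.0369 and 0.0428 (limma) but were under the 1.5-fold limit. For Rpl7l1 the other probe set gave 1.05, and for Rpsa the other probe sets gave 0.83 and 0.52, while for Rpl7 the values of 1.11 and 1.01 were close.

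The 2 hippocampal regions were lower than CbG after the exchange. In CA1, 33 genes fell (15.6% of all probe sets called lower, 40.6% in either direction), among them all 12 of the 40S subunit, with a median of -1.07 beside 0.13 over all probe sets. In CA3, 35 fell (18% called lower, 45.5% in either direction), with a median of -1.04 beside 0.14. None rose in either comparison. Every CbG array was above every CA1 array for 36 genes (19.5% of all probe sets) and above every CA3 array for 35 (21.5%). The counts were 32 (13% of all probe sets) and 33 (13.9%) without both doubted arrays. With the labels exchanged but without CbG replicate 2 they were 28 (14.9%) and 32 (17.5%), with medians of -0.79 and -0.88.

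Relative to CbG, the genes with the largest falls in CA1 were Rpl34 (-1.64 ± 0.22 SE, adjusted p = 4.26e-05, limma), Rpl26, a 60S protein near the exit tunnel (-1.62 ± 0.28), Rpl24 (-1.50 ± 0.20), Rps28, a 40S protein (-1.44 ± 0.23), and Rpl21 (-1.40 ± 0.24). Those in CA3 were Rpl24 (-1.60 ± 0.20, adjusted p = 2.01e-05), Rpl35a (-1.58 ± 0.24), Rpl26 (-1.56 ± 0.28), Rpl34 (-1.55 ± 0.22) and Rps3a, a 40S protein (-1.50 ± 0.25). For Rpl26, CbG replicate 2 read 26854 against 8976 on CbG replicate 1 and 11738 on the array that carries the label CA3 replicate 3. The other 9 arrays lay between 3839 and 8792, so that the groups did not overlap even without the highest array. Rpl22, Rpl41, Rpl6, Rpl7a and Rpl7l1 were called in neither comparison, and Rpl27 (-0.66, adjusted p = 0.0557, limma) and Rpl39 (-0.53, under the 1.5-fold limit) were not called in CA1 against CbG. Rpl22 differed by -0.04 in CA1 (95% interval -0.45 to 0.37) and by -0.40 in CA3 (-0.81 to 0.00), and Rpl7a, a 60S protein, by -0.41 and -0.24.

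**Figure D3:**
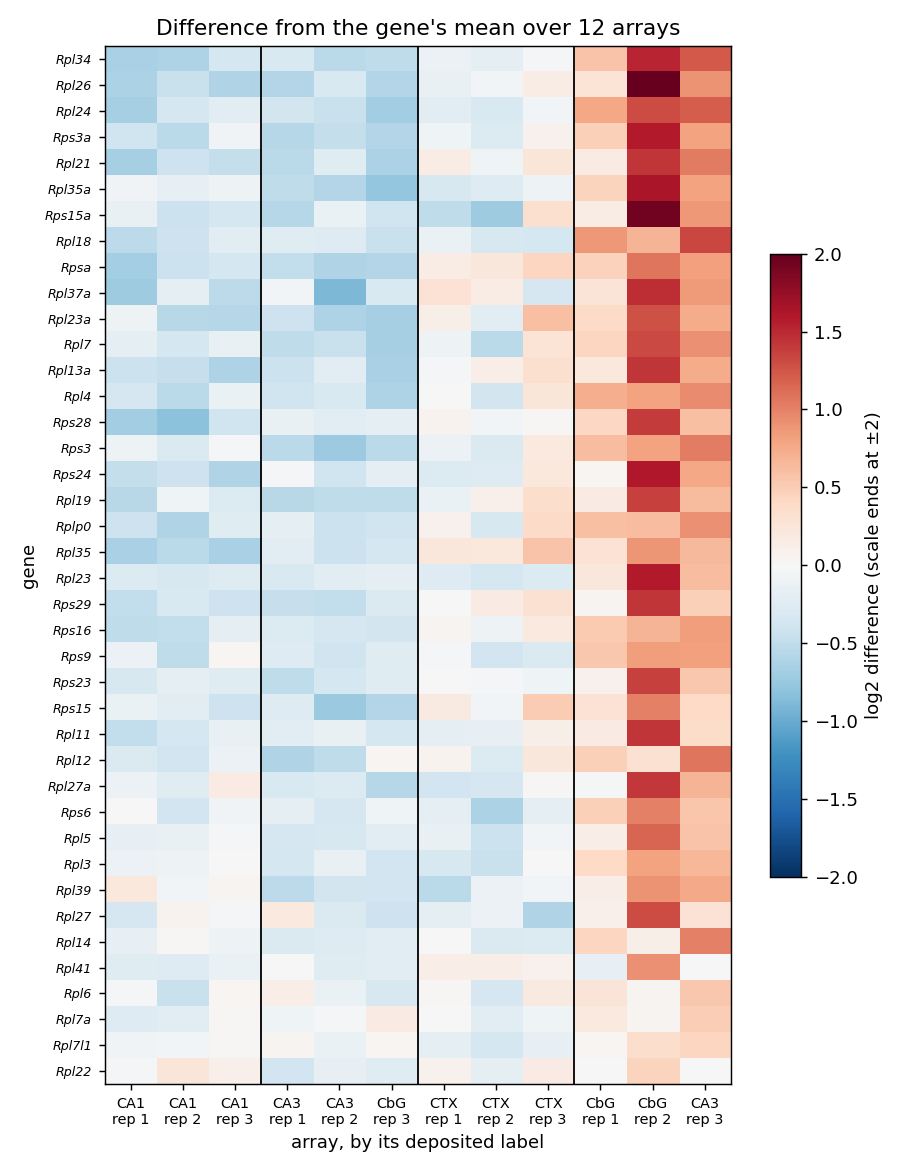
Each gene's log2 signal relative to the array median, as the difference from that gene's mean over the 12 arrays (colour scale cut at ±2), with genes in rows and arrays in columns. The columns of CbG replicates 1 and 2 and of the array labelled CA3 replicate 3 are high for most genes, and the array labelled CbG replicate 3 is like the other CA3 arrays.

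On centred arrays with the labels exchanged, the median difference between hippocampus and cortex was smaller than that of either from CbG. Fewer genes were called as well. After the exchange 4 genes fell in CA1 against CTX and none rose, against 7.3% of all probe sets called lower and 34.1% in either direction. They were Rpl35 (-0.94), Rpsa (-0.76), Rps28 (-0.65) and Rpl13a (-0.64). In CA3 against CTX 5 fell, against 8.39% called lower and 36.3% in either direction: Rpsa (-0.84), the 40S protein Rps15 (-0.75), Rpl23a (-0.73), Rpl35 (-0.67) and Rpl19 (-0.63). Set against all probe sets called lower, these are only slightly larger shares of the 40 genes, and without both doubted arrays the counts were 3 (7.29%) and 1 (7.03%). They depended on the scaling: without centring 15 (12.8% of all probe sets) and 21 (15%) genes fell, and after quantile normalization 18 (11.8%) and 25 (12.9%), while with no filter 2 (4%) and 1 (3.74%) did. After quantile normalization both counts were above that of genes higher in CbG than in CTX, and without centring the CA3 count was. After quantile normalization the medians in CA1 and CA3 against CTX were also larger in size than that in CbG against CTX. The ranking of these comparisons by count and by median thus changed with the scaling.

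The median over the 40 genes was -0.23 in CA1 against CTX and -0.32 in CA3 against CTX, beside 0.33 and 0.32 over all probe sets. The median of all probe sets depends on how arrays are centred: without centring it was 0.00 in CA1 against CTX. Relative to all probe sets, the 40 genes were at -0.55 in CA1, -0.64 in CA3 and 0.62 in CbG, each against CTX. On this measure CA1 and CA3 differed from CTX about as much as CbG did, in the other direction. Centring shifts all probe sets of an array alike, so these relative values are the same without it and do not test the scaling. Every CTX array was above every CA1 array for 13 of 40 genes (10.5% of all probe sets) and above every CA3 array for 18 (11.7%).

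Rpl35 and Rpsa, called in both comparisons with CTX, are shown by array. Rpl35 read 3387, 3717 and 3162 in CA1, 4504, 3628 and 8384 on the arrays labelled CA3, 7682, 10283 and 4234 on those labelled CbG and 7685, 7214 and 9944 in CTX. Rpsa read 2149, 2587 and 2513 in CA1, 2419, 2075 and 6083 on the arrays labelled CA3, 5662, 7635 and 2339 on those labelled CbG and 4718, 4780 and 5890 in CTX. For both genes the CTX arrays were near the granule cell arrays and far above CA1, with no overlap between CTX and CA1.

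The order of the regions after the exchange was CbG, then CTX, then both hippocampal regions. On the centred log2 scale all 40 genes had their highest mean in CbG (30.8% of all probe sets), and 27 had CTX above both CA1 and CA3 as well (9.46%). No difference between the 2 hippocampal regions passed the test: 0 genes were called in CA1 against CA3, where 13.5% of all probe sets were called in either direction, and the median was 0.07 beside 0.01. By limma p was under 0.05 without adjustment for 2 genes, both higher in CA1 (14.7% of all probe sets). The largest differences there were 0.50 for Rpl35a (adjusted p = 0.193, limma), 0.49 for Rpl39, a small 60S protein of the exit tunnel (0.131), 0.46 for Rps3 (0.0969) and -0.45 for Rps28 (0.230). The test over the 4 regions called 35 of 40 genes, against 66.9% of all probe sets. It called 33 without both doubted arrays (60.8%), and 30 with the labels exchanged but without CbG replicate 2 (68.3%).

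**Figure D4:**
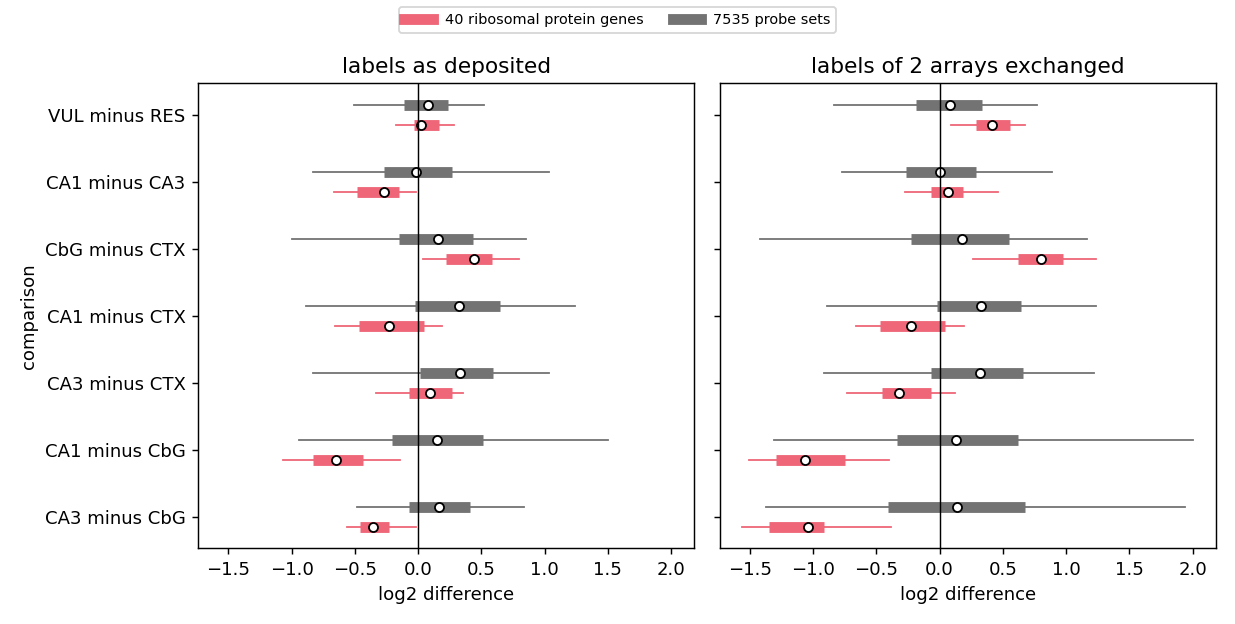
Log2 differences of the 40 ribosomal protein genes and of all 7535 probe sets tested in the 7 comparisons, as labelled and exchanged; points are medians, thick bars the middle 50% and thin lines the range from 5% to 95%. The genes lie furthest from all probe sets in CA1 and CA3 against CbG, with medians of -1.07 and -1.04 beside 0.13 and 0.14 after the exchange.

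The comparison of the study, VUL against RES, averages CA1 with CbG and CA3 with CTX. After the exchange 7 genes were higher in VUL and none lower, against 10.2% of all probe sets called higher and 18.5% in either direction, with a median of 0.42 beside 0.08. They were Rpl35a (0.84 ± 0.17 SE, adjusted p = 0.00234, limma), Rpl24 (0.70), Rps3 (0.67), Rpl39 (0.67), Rpl7 (0.66), Rps3a (0.63) and Rpl27a (0.62). The count was 7 without both doubted arrays (8.66% of all probe sets) and 5 with the labels exchanged but without CbG replicate 2 (10.7%). It was 3 without centring (7.19%), 1 after quantile normalization (7.35%) and 4 with no filter (4.58%). Rpl35 differed by -0.00 (95% interval -0.29 to 0.29).

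A test of the difference asked whether the 2 pairs of a vulnerable and a resistant region gave the same result. The difference between CA1 minus CA3 and CbG minus CTX was called in 9 genes after the exchange, all with the smaller value in the hippocampal pair, against 13.3% of all probe sets called in that direction and 24% in either. The median was -0.68 beside -0.18 over all probe sets. Rpl34 (-1.30, adjusted p = 0.0085, limma) and Rpl18 (-1.30, 0.0042) were the largest, and the others were Rps28, Rps24, Rpl24, Rpl23, Rpl26, Rps6 and Rps9, from -1.24 to -0.86. The count was 5 without both doubted arrays (6.89% of all probe sets), also 5 with the labels exchanged but without CbG replicate 2 (13.6%), and 1 with no filter (3.47%).

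Other genes of protein synthesis, from lists of translation factors, assembly factors and kinases, are given with the labels exchanged. Over all probe sets 20.9% were called higher in CbG than in CTX, 25.1% higher and 15.6% lower in CA1 than in CbG, and 27.5% higher and 18% lower in CA3 than in CbG. Rack1, a scaffold protein of the 40S subunit that the symbol rule misses, was called with 1.17 in CbG against CTX, -1.29 in CA1 against CbG and -0.98 in CA3 against CbG. Of 14 further genes whose messages belong to the TOP family, mostly translation factors, 8 were higher in CbG than in CTX and none lower, with a median of 0.78, including Eif3h (1.00), Eif4b (0.99), Hnrnpa1, an RNA-binding splicing protein (0.96), and Eef1b2 (0.92). In CA1 and CA3 against CbG 3 and 5 of these were lower, with medians of -0.46 and -0.47. Of 28 other initiation and elongation factors 6 were higher in CbG than in CTX and none lower (median 0.40). In CA1 against CbG 6 of these were higher and 1 lower (median 0.30), and in CA3 against CbG 9 were higher and 1 lower (median 0.44). The lower one in both was Eif3m, a subunit of the initiation factor eIF3, with -1.41 and -1.33.

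The machinery that builds ribosomes, and the ribosome of mitochondria, differed in value from the cytosolic genes. Of 33 ribosome biogenesis genes 8 were higher in CbG than in CTX and none lower (median 0.32), among them Polr1d, a subunit shared by RNA polymerases I and III (2.19), and Pes1, an assembly factor of the 60S subunit (1.21). In CA1 against CbG 5 were higher and 2 lower (median 0.26), and in CA3 against CbG 7 were higher and 4 lower (median 0.09). Of 70 mitochondrial ribosomal protein genes 6 were higher in CbG than in CTX and none lower (median 0.30). In CA1 against CbG 8 were higher and 1 lower (median 0.13), and in CA3 against CbG 16 were higher and none lower (median 0.27). Of 14 mTOR and S6 kinase pathway genes 2 were higher in CbG than in CTX, Sesn1 (1.03) and Rps6kb1, an S6 kinase (1.02), with a list median of -0.05. In CA1 against CbG 1 was higher and 2 were lower, and in CA3 against CbG none was higher and 2 were lower.

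**Figure D5:**
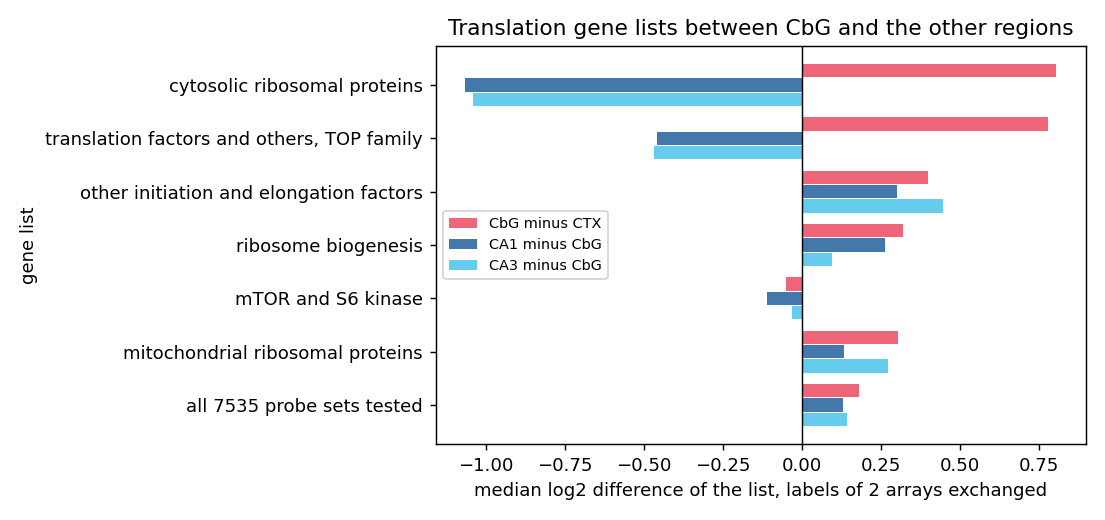
Median log2 difference of 6 lists of genes for protein synthesis and of all 7535 probe sets tested, with the labels exchanged, in CbG minus CTX, CA1 minus CbG and CA3 minus CbG. The cytosolic ribosomal protein genes have medians of 0.80, -1.07 and -1.04, while the mitochondrial ribosomal protein genes have 0.30, 0.13 and 0.27.

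A further 33 tested probe sets list several symbols of which at least 1 is a ribosomal protein gene, and cannot be given to a single gene. As labelled 0 were called. After the exchange 18 were higher in CbG than in CTX (20.9% of all probe sets), with a median of 0.67 beside 0.18. In CA1 26 were lower than in CbG (15.6% of all probe sets), with a median of -0.89 beside 0.13, and in CA3 26 were lower (18%), with a median of -1.01 beside 0.14. Ribosomal protein genes have many processed pseudogenes with nearly the same sequence, so that probes for a single symbol can also read transcripts of such copies.

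The 4 genes that the filter left out had low signals everywhere. Rpl30, a 60S protein, read 15.8 to 79.8 over the 12 arrays. It has only 1 probe set here, and whether that probe set measures the gene's level was not tested. The paralogs Rpl3l, known from striated muscle, Rps27l, a p53 target, and Rps4y2 read 3.5 to 87.2, 24 to 64.1 and 2.8 to 47.3, all under the lowest array median of 144.5. No difference between regions was tested for these.

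Signs of cell content also differed between the regions with the labels exchanged, and most did not follow the order of the ribosomal protein genes. Their part in the differences was not tested. The summed signal of 9 granule cell markers (of 11 listed) was 35475 to 41056 in CbG and at most 2563 elsewhere. The sum of 4 forebrain pyramidal cell markers (of 6) was 382 to 474 in CbG, against 24353 to 28928 in CA1, 19843 to 23330 in CA3 and 11847 to 16097 in CTX. The sums of all 10 astrocyte markers were also high in CbG, at 22257 to 46382, and in CTX, at 24909 to 40062, against 13394 to 18086 in CA1 and 11193 to 18333 in CA3. The sums of 8 oligodendrocyte markers (of 10) were highest in CTX, at 29176 to 44503, with 14286 to 20847 in CbG, 10078 to 13537 in CA3 and 4391 to 6826 in CA1. Sums of 10 microglia markers were 671 to 1157 in CbG and 1188 to 1887 in CTX, with 438 to 880.5 in CA1 and 499 to 833 in CA3. For 7 endothelial markers (of 8) they were 1324 to 2268 in CbG, 2135 to 3339 in CTX, 620 to 907 in CA1 and 830 to 1111.5 in CA3. For 6 inhibitory neuron markers they were 3052 to 8257 in CbG, 11905 to 16086 in CTX, 7580 to 9034 in CA1 and 3767 to 5261 in CA3.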

How the data were processed

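RNA from laser-captured neurons was profiled on 12 arrays. Per the labels and the study's methods, the deposited signal intensity values were made by the authors with the Affymetrix MAS5 algorithm from two-cycle labelled RNA and scaled to a common target; GCOS was the software. The values are not log transformed. The arrays are 3 per region; their number limits the precision. Here log2 signals were centred on each array's median over 15866 probe sets that are not controls. Probe sets above the array median on at least 8 of 12 arrays (7 of 10 without the doubted arrays) were tested, 7535 in all. Region means with the replicate number as a block were fitted in limma 3.58.1 (R 4.3.3), with Benjamini-Hochberg adjustment. Intervals are 95%, from limma's moderated t. The fit was tested on simulated data. Figures were made with Python 3.11.15 and matplotlib 3.10.9.

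Probe sets were named from the platform table, where 12789 had 1 symbol, 312 several and 2771 none listed. The replicate number is a block because the methods describe regions captured from the same animals and use paired tests. As labelled, deviations of same-numbered arrays had a mean correlation of -0.0613 (18 pairs, -0.887 to 0.19) against 0.0202 for other numbers, with both doubted arrays carrying the same number. With exchanged labels it was 0.0856 (-0.0614 to 0.228) against -0.0424. Where no separate animals stand behind the numbers, the p-values measure only the spread between arrays.

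The members, gene lists and tests were chosen with earlier results of these data known. Named genes are the 5 largest called differences per comparison and direction, the 5 genes with the widest and the 5 with the narrowest range of region means, genes of known special role, genes left out by the filter, and up to 4 genes per other list. Rpl27a, Rps9, Rps29, Rpl23a and other members named only to complete a count were named after their values were seen. Alternatives were no block, no centring, quantile normalization, 50 added before log2, no filter, a trended robust prior, no fold limit, the mean over probe sets, the methods' paired t-test, and each array or replicate number left out. Their combinations with exchanged labels were chosen after seeing the data.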

Additional observations from a re-analysis of the deposited data

Results flagged for a closer look

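In groups of 6 arrays (VUL or RES as labelled), the gap between the highest or lowest array and its nearest neighbour was set against the group's whole range. Dixon's critical value was exceeded in 19 of 66 groups. Each group mixes regions, all groups reuse the same arrays, and many of the genes were named for large differences. The value therefore serves only to flag arrays, and the count cannot be set against a chance rate. In the RES arrays the array labelled CA3 replicate 3 stood far above the others for Rpl14 (0.778), Rpl18 (0.869), Rpl23 (0.855), Rpl24 (0.767), Rpl34 (0.717), Rpl35a (0.649), Rpl39 (0.628), Rpl7a (0.661) and Rps28 (0.655). In the VUL arrays CbG replicate 2 stood far above for Rpl11 (0.656), Rpl19 (0.626), Rpl23 (0.714), Rpl26 (0.661), Rpl41 (0.899), Rpl5 (0.752), Rpl7l1 (0.741), Rps15a (0.753) and Rps24 (0.711). The lowest RES array for Rpl41 was CA3 replicate 2 (0.638).

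With the labels exchanged, limma's test of the difference between CA1 minus CA3 and CbG minus CTX was passed by Rpl34 (-1.30), Rpl18 (-1.30), Rps28 (-1.24), Rps24 (-1.21), Rpl24 (-1.19), Rpl23 (-1.16), Rpl26 (-1.14), Rps6 (-0.95) and Rps9 (-0.86).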

How the results depend on the processing

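As labelled, the counts were 0 in all comparisons under each change of scaling, filter, prior and fold limit, and with the methods' paired t-test, while changes to the doubted arrays moved them. Exchanged labels gave 7 (VUL against RES), 30 (CbG against CTX), 4 (CA1 against CTX), 5 (CA3 against CTX), 33 (CA1 against CbG), 35 (CA3 against CbG), 9 (difference of differences) and 35 (4 regions), and a median of -1.04 in CA3 against CbG. Without both doubted arrays these were 7, 21, 3, 1, 32, 33, 5 and 33, and -1.06. Leaving out 1 array or replicate number gave, in that order, 0 to 4, 0 to 15, 0 to 1, 0 to 1, 0 to 29, 0 to 31, 0 to 5 and 0 to 29, the highest without replicate 3 or CbG replicate 3. The medians as labelled ran from -0.23 to 0.43 in VUL against RES, -0.56 to 0.15 in CA1 against CA3, -0.06 (without CbG replicate 2) to 0.96 in CbG against CTX, -0.37 to 0.33 in CA3 against CTX, -0.39 to -0.13 in CA1 against CTX, -1.25 to -0.19 in CA1 against CbG and -1.06 to 0.22 in CA3 against CbG.

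With exchanged labels, VUL against RES gave 3 without centring, 1 after quantile normalization, 4 with no filter and 16 with no fold limit. The methods' paired t-test gave 4 before Benjamini-Hochberg adjustment (7.6% of all probe sets higher) and 2 after it (194 of 7535 probe sets in either direction). Counts in this section without a share of all probe sets show only how the calls moved with the setting. CbG against CTX gave 17 without centring, 14 (median 0.49) after quantile normalization and 13 with no filter. CA1 against CTX gave 15 (median -0.55), 18 (median -0.59) and 2, and CA3 against CTX 21 (median -0.65), 25 (median -0.75) and 1, with 9 after adding 50 before log2. The difference of differences gave 4, 5 and 1, and 14 with a trended robust prior. Leaving out 1 array or replicate number gave 4 to 17 (lowest without replicate 3, highest without CbG replicate 1), 13 to 34 (lowest without replicate 2), 0 to 7 and 1 to 9 (highest without replicate 2), 28 to 35, 31 to 35, 2 to 18 (highest without CbG replicate 1) and 29 to 35. The medians ran from 0.26 to 0.55, 0.53 to 0.98, -0.39 to -0.13, -0.43 to -0.19, -1.22 to -0.79 and -1.32 to -0.88 in the first 6 comparisons, and from 0.01 to 0.12 in CA1 against CA3. The 29 calls of named genes, each under 24 settings, were kept in 627 and lost in 69 of these combinations, with none reversed, and the losses fell on 14 of the 29. The causes were not tested.

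Without the replicate block the counts as labelled stayed 0, and with exchanged labels they were 7, 27, 3, 4, 33, 35, 8 and 35, so that the pairing moved no count by more than 1.5 times.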
